A study of Bos taurus with 16 samples.

Results

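The genes described here are 10 transcription factors and regulators of the early response: the AP-1 subunits JUN, JUNB, JUND, FOS and FOSB, the zinc-finger factor EGR1, the orphan nuclear receptor NR4A1, the basic leucine zipper factors CEBPB and ATF3, and the nuclear protein IER2. They were chosen by name, with the treatment and control levels of these libraries known, and all 10 had counts among the 20629 features. The counts of their 15 RefSeq accessions were summed by gene.

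Immediate early genes are transcribed within minutes of a signal without new protein synthesis, and most encode short-lived transcription factors that set off a second wave of transcription. AP-1 is a dimer, in which JUN proteins pair with one another or with FOS proteins, while FOS proteins need a partner to bind DNA. In granulosa cells, the oestradiol-making cells that line the follicle, several of these genes respond to gonadotropins and CEBPB is needed for luteinisation. In monocytes and macrophages the same factors respond to inflammatory and adhesion signals.

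RNA came from cells pelleted from the aspirated dominant follicle of lactating, synchronised Holstein cows at 63 ± 3 days postpartum, after GnRH and prostaglandin F2alpha and before the next GnRH injection, which all groups shared. The labels give 9 control and 7 treatment libraries and do not say what treatment stands for. The series' title names resolved uterine disease, and its design text says that cows with metritis received ceftiofur. The tissue field reads blood although the protocol describes granulosa cells, and no label ties a library to a cow, so that p-values measure only the spread between these libraries.

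The libraries were of 2 kinds and are compared within each. In 9 of them INHA, the inhibin alpha subunit made by granulosa cells, lay between 1759 and 3041 CPM (counts scaled to a common library total), above the limit of 1000 CPM for a granulosa-rich library. In the other 7, which go against the protocol's description, INHA lay between 0.404 and 111 CPM, under the limit of 200 CPM for a leukocyte-rich library. The sum of 10 pan-leukocyte markers lay between 5313 and 11223 CPM in the leukocyte-rich libraries and between 190.1 and 1302 CPM in the granulosa-rich ones. Libraries held 8111862 to 14348753 counts, and 3 counts correspond to 0.212 to 0.375 CPM, for counting error only. In such bulk samples fewer cells of a type and less RNA per cell cannot be told apart.

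In the granulosa-rich libraries every one of the 10 genes had a lower fitted level in the 4 treatment libraries than in the 5 control libraries. Their median log2 fold change was -1.96, against 0.04 over all 9272 features. The differences were widest for NR4A1, ATF3, JUNB, EGR1 and CEBPB and smallest for FOS and JUN. Since the genes were chosen with this comparison known, its values are a description without a test. Over all features 47.1% were lower in treatment. edgeR's quasi-likelihood test called 0 of 9272 features (0%) at an adjusted p under 0.05 and 433 (4.67%) at an unadjusted p under 0.05, among them 5 of the 10 genes. DESeq2 called 14 of 13540 features (0.103%), 3 of them NR4A1, JUNB and CEBPB. Nothing is read from the share of the 10 genes in these counts, since they were chosen with these values known. All values below are CPM scaled by TMM factors, and fold changes are of treatment over control with their standard error (SE).

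**Figure D1:**
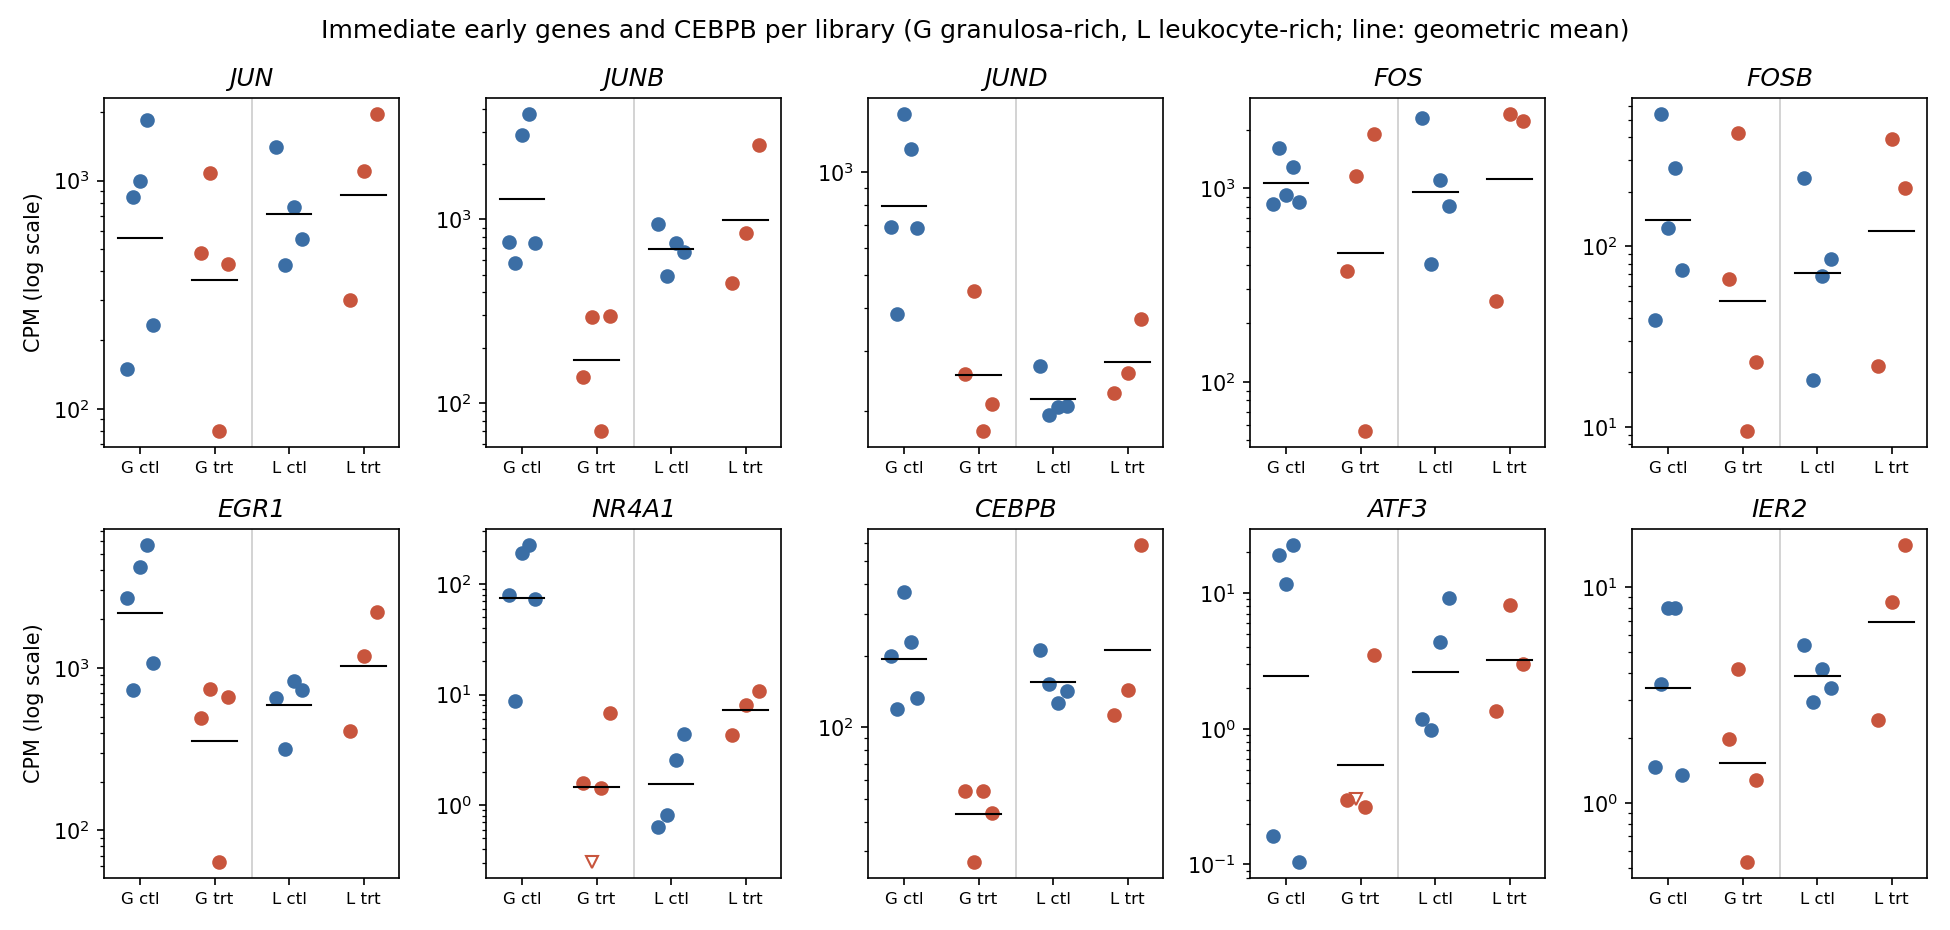
Level of each of the 10 genes (CPM with TMM scaling, log axis) in every library, by kind of library (G granulosa-rich, L leukocyte-rich) and label (control blue, treatment red); each point is a library, each line a geometric mean, and an open triangle marks a count of 0, drawn at the level of 3 counts. In the granulosa-rich libraries the treatment points of NR4A1, JUNB and CEBPB lie below all control points, while those of FOS and JUN are interleaved with them.

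Of the JUN subunits, JUNB, an AP-1 subunit that binds many of the same sites as JUN with weaker activation, stood at 758, 582, 2898, 3761 and 743 CPM in granulosa-rich control replicates 2, 3, 4, 7 and 8. In treatment replicates 4, 5, 6 and 7 it stood at 138, 293, 70.5 and 298 CPM. All 4 treatment libraries lay below all 5 control libraries, and control replicates 4 and 7 stood far above the other controls. The fitted log2 fold change was -3.12 ± 0.69 (SE), and -1.80 without those 2 libraries, an alternative chosen after the data were seen.

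JUND, the JUN subunit with the steadiest expression in most tissues, stood at 690.4, 385, 1480.0, 1165 and 687 CPM in the same 5 control libraries and at 257, 448, 175 and 209 CPM in the 4 treatment libraries. The groups overlapped only because treatment replicate 5 lay above control replicate 3. Its log2 fold change was -1.70 ± 0.41, and -1.12 without control replicates 4 and 7. JUN itself, the founding and most strongly activating subunit, ranged from 150.2 CPM in control replicate 2 to 1853 CPM in control replicate 7, and from 80.1 CPM in treatment replicate 6 to 1086 CPM in treatment replicate 5. The 2 groups were interleaved, the log2 fold change of -0.66 ± 0.77 was smaller than its error, and it turned to 0.34 without control replicates 4 and 7. It was -0.07 without control replicate 7 alone and -1.28 without treatment replicate 5.

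The FOS subunits showed no such separation. FOS, the partner with which JUN forms the most active dimer, stood at 829.2, 1622, 928, 1291 and 848 CPM in control and at 374, 1162, 55.7 and 1917 CPM in treatment. Treatment replicate 7 held the highest value of all 9 libraries and treatment replicate 6 the lowest. Its fitted log2 fold change was -0.37 ± 0.71, reached 0.02 without treatment replicate 6 and -1.11 without treatment replicate 7, while the mean log2 CPM of the 5 controls was 10.06 ± 0.42 (SD) and that of the 4 treatment libraries 8.86 ± 2.26 (SD). FOSB, a close relative of FOS, stood at 38.8, 540.4, 126, 270.4 and 73.9 CPM in control and at 65.7, 426, 9.49 and 22.9 CPM in treatment. Control replicate 3 and treatment replicate 5 were both high, the groups overlapped, and the log2 fold change was -0.74 ± 1.05. Leaving out control replicate 3 moved it to 0.03, and leaving out treatment replicate 5 to -2.69.

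EGR1, a zinc-finger factor that binds GC-rich promoters and is induced by gonadotropins, stood at 2685, 736, 4159, 5695 and 1069.7 CPM in control and at 492, 738, 63.9 and 666 CPM in treatment. Only control replicate 3 and treatment replicate 5, at 736.3 and 737.7 CPM, kept the groups from being separate. Its log2 fold change was -2.55 ± 0.75, and -1.62 without control replicates 4 and 7. NR4A1, an orphan receptor that activates steroidogenic genes, stood at 79.6, 8.74, 193, 225 and 73.9 CPM in control and at 1.58, 0, 1.42 and 6.85 CPM in treatment. No treatment library reached the lowest control library, and treatment replicate 5 held no count, which allows up to 0.305 CPM by library size. The log2 fold change was -5.51 ± 1.22, and ranged from -6.76 to -5.11 when 1 library was left out.

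CEBPB stood at 199, 119, 373, 229 and 133 CPM in control and at 54.0, 27.0, 53.9 and 43.6 CPM in treatment. The treatment libraries lay within a narrow band below all control libraries. The log2 fold change was -2.23 ± 0.38, which was the smallest error among the 10 genes, and ranged from -2.36 to -1.94 when 1 library was left out. ATF3, a stress-induced factor that often represses, was near the limit of counting in several libraries: 0.163, 19.0, 11.6, 22.6 and 0.104 CPM in control and 0.297, 0, 0.266 and 3.5 CPM in treatment. Control replicates 2 and 8 were as low as the treatment libraries, and the other 3 controls lay above all 4 treatment libraries. The log2 fold change was -3.35 ± 1.61, and -5.67 without treatment replicate 7, and ATF3 did not pass the filter on low counts without control replicate 3, 4 or 7. IER2, a nuclear regulator of the early response, was counted 6 to 92 times in these libraries, ranged from 1.35 to 8.06 CPM in control and from 0.532 to 4.16 CPM in treatment, and had a log2 fold change of -1.19 ± 0.77, and of -0.11 ± 0.84 without control replicates 4 and 7.

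Separate groups were thus found for 3 of the 10 genes, NR4A1, JUNB and CEBPB, where 0.744% of the 9272 features had every treatment library below every control library. The choice of genes drew on these values, so such counts are descriptions. With scaling by library size alone JUND and EGR1 were separate too, 5 of 10 against 0.55% of features; that scaling moved the median of all features from 0.04 to 0.19 and left all 10 genes lower, with a median of -1.74. The separation was not spread evenly over libraries. Treatment replicate 6 held the lowest value for 7 of the 10 genes and treatment replicate 5 for the other 3, while control replicate 7 held the highest for 6. The TMM factor of control replicate 7 was 0.614, which raises its CPM. By library size alone JUN and EGR1 stayed highest there, while JUNB, NR4A1 and IER2 were highest in control replicate 4 and ATF3 in control replicate 3.

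**Figure D2:**
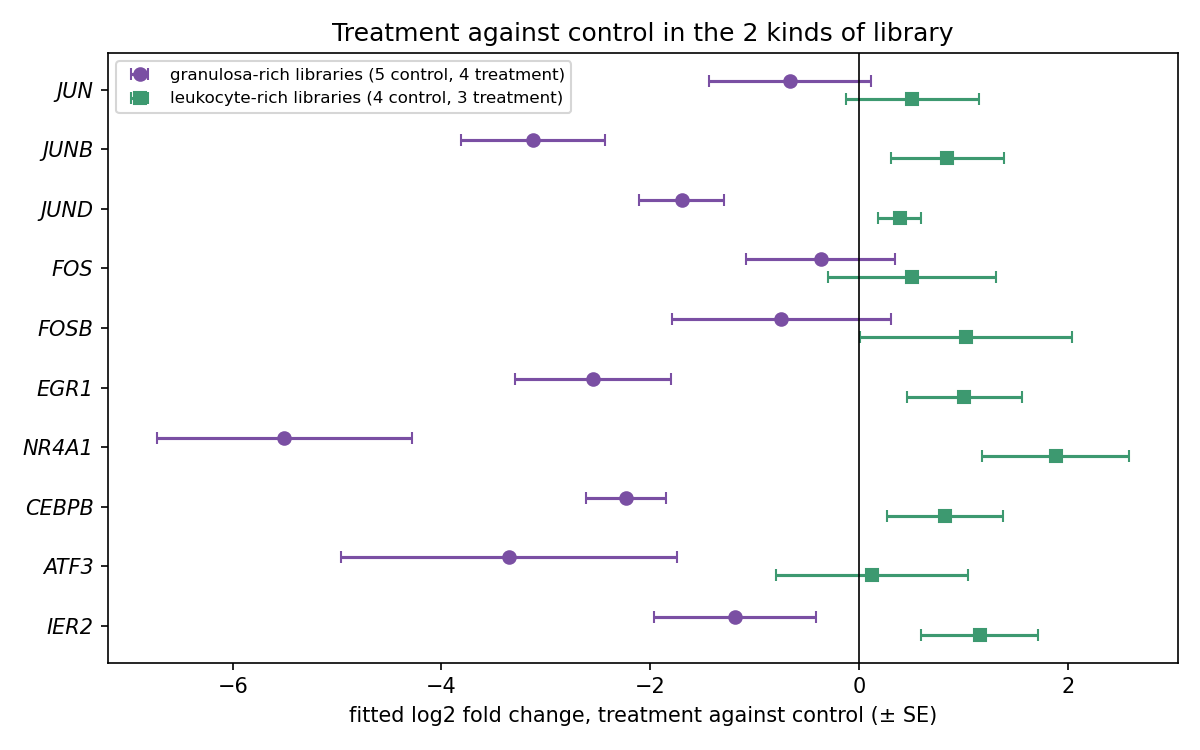
Fitted log2 fold change of treatment over control (bars, ± SE) for each of the 10 genes in the granulosa-rich (5 control, 4 treatment) and leukocyte-rich (4 control, 3 treatment) libraries. In the granulosa-rich libraries all 10 lie below 0, and in the leukocyte-rich ones all 10 lie above 0.

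Markers of other cells differed in level between these groups, while the ranges of their sums overlapped. Of 15 monocyte and macrophage markers 12 were counted, and their sum was 29.4 to 837 CPM in granulosa-rich control and 368 to 1576 CPM in treatment libraries. CD163, C1QB and MS4A7 were at 0 in all 5 controls and MS4A7 also in all 4 treatment libraries. The 10 theca and stroma markers summed to 442 to 2856 CPM in control and 168 to 1118 CPM in treatment, with PDGFRB at 0 in all 9 libraries. The 17 granulosa markers counted of 18 summed to 113315 to 255054 CPM in control and 57288 to 205433 CPM in treatment. The lowest of these sums was in treatment replicate 7, and the other treatment libraries lay at 109062 to 205433 CPM. By fitted level, 8 of the 9 monocyte and macrophage markers tested were higher in treatment libraries (median log2 difference 1.03). So were 9 of 10 T and NK cell markers (median 0.62). Lower there were 6 of 7 theca and stroma markers (median -1.51) and 13 of 17 granulosa markers (median -0.38). Every treatment library lay above every control library for 2 of the 12 monocyte and macrophage markers, and below for 1 granulosa marker. The part of these markers in the lower levels of the 10 genes was not tested.

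The leukocyte-rich libraries are other libraries than those 9, and the test over all features is given for them. The genes were chosen with these levels known too, so the values are no independent evidence of a direction. All 10 genes had a higher fitted level in the 3 treatment libraries than in the 4 control libraries, with a median log2 fold change of 0.84 against 0.01 over all 9912 features, of which 51.1% were higher. None passed: edgeR's quasi-likelihood test called 0 of 9912 features (0%), DESeq2 called 1 feature, not one of the 10, and 259 features (2.61%) had an unadjusted p under 0.05. NR4A1 was the only one of the 10 below that level, at an unadjusted p of 0.0298. Its edgeR adjusted p was 0.9996, as it was for the other 9 genes. For none of the 10 did the groups separate, where 1.85% of features had every treatment library above every control library.

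NR4A1 stood at 0.630, 0.820, 2.58 and 4.41 CPM in leukocyte-rich control replicates 1, 5, 6 and 9 and at 4.28, 8.07 and 10.8 CPM in treatment replicates 1, 2 and 3. Treatment replicate 1 lay just under control replicate 9, and the other 2 treatment libraries lay above all controls. The log2 fold change was 1.88 ± 0.70. EGR1 stood at 655, 318, 828 and 726 CPM in control and at 412, 1183 and 2217 CPM in treatment, with treatment replicate 1 inside the control range and the other 2 above it. Its log2 fold change was 1.01 ± 0.55.

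JUNB stood at 941, 491, 743 and 665 CPM in control and at 449, 849 and 2535 CPM in treatment. Treatment replicate 1 was the lowest of the 7 libraries and treatment replicate 3 the highest. CEBPB showed the same order, at 211, 152, 126 and 142 CPM in control and 113, 143 and 586 CPM in treatment. Their log2 fold changes of 0.85 ± 0.55 and 0.83 ± 0.56 were -0.12 and -0.30 without treatment replicate 3.

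JUND kept within 194 to 372 CPM, a 1.92-fold range that was the narrowest in fold of the 10 genes, and had a log2 fold change of 0.39 ± 0.20. JUN ranged from 428 to 1408 CPM in control and from 300.3 to 1963 CPM in treatment, and FOS from 407 to 2311 CPM and from 262 to 2427 CPM. Both were lowest in treatment replicate 1, and neither had a log2 fold change beyond its error (0.51 ± 0.64 and 0.51 ± 0.80). FOSB stood at 239, 18.1, 68.8 and 84.8 CPM in control and at 21.7, 389.8 and 211 CPM in treatment. Control replicate 5 and treatment replicate 1 were both low, as they were for FOS, and the log2 fold change was 1.03 ± 1.02.

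ATF3 stood at 1.19, 0.984, 4.33 and 9.15 CPM in control and at 1.36, 8.21 and 3.00 CPM in treatment, so that its highest value was in a control library. Its log2 fold change was 0.13 ± 0.92. IER2 stood at 5.39, 2.95, 4.18 and 3.42 CPM in control and at 2.43, 8.57 and 15.7 CPM in treatment. Here treatment replicates 2 and 3 lay above all controls and treatment replicate 1 below them, with a log2 fold change of 1.16 ± 0.56.

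A single library carried much of this. Treatment replicate 3 was highest for 7 of the 10 genes and treatment replicate 1 lowest for 5. Without treatment replicate 3, 7 of 10 genes were higher and the median log2 fold change was 0.27, with JUN, JUNB and CEBPB below 0, EGR1 at 0.35, IER2 at 0.48, FOS at 0.23 and JUND at 0.15. Without treatment replicate 1 the median was 1.22. Treatment replicate 3 also had the highest sum of monocyte and macrophage markers, 16101 CPM against 4867 to 9612 CPM in the other 6 leukocyte-rich libraries. Theca and stroma markers summed to 397 CPM there, and to 6878 and 9687 CPM in treatment replicates 1 and 2 against 469 to 2184 CPM in the controls. Granulosa markers summed to 5792 CPM in treatment replicate 1, the library lowest for 5 of the 10 genes, against 163 to 832 CPM in the other 6, and 13 of the 14 tested had a higher fitted level in treatment (median log2 fold change 1.55). T and NK cell markers summed to 161 to 1229 CPM in control and 473 to 1406 CPM in treatment, with 11 of 13 higher (median 0.89). The part of these markers was not tested.

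**Figure D3:**
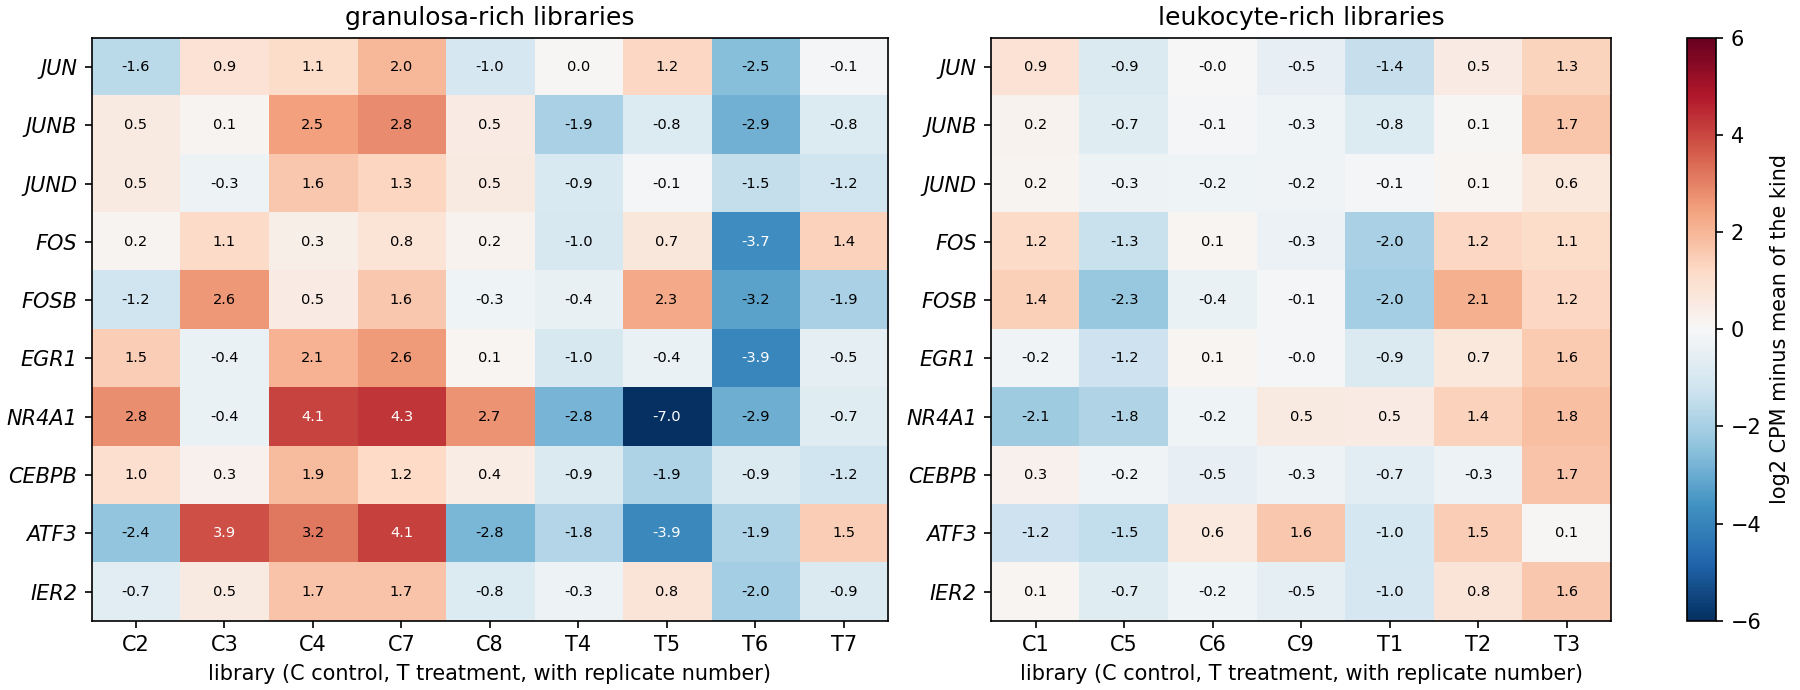
Each cell gives the log2 CPM of a gene (rows) in a library (columns; C control, T treatment, with the replicate number) minus the mean of that gene over the libraries of its kind, red for higher and blue for lower; the colour scale stops at 6 either way. Granulosa-rich treatment replicate 6 is lowest for 7 genes, and leukocyte-rich treatment replicate 3 highest for 7.

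Fitted over all 16 libraries with no regard to kind, 7 of the 10 genes were lower in treatment, against 47.9% of 9653 features, and edgeR called 0 features (0%), where 163 (1.69%) had an unadjusted p under 0.05 and DESeq2 called 3. NR4A1 had a log2 fold change of -3.79 ± 1.29 and ATF3 of -1.67 ± 1.09. EGR1 was at -1.18 ± 0.68, JUND at -1.08 ± 0.45 and JUNB at -0.96 ± 0.68. Once kind entered the fit as a term, NR4A1 was at -2.04 ± 1.88, EGR1 at -0.90 ± 0.78 and JUND at -0.75 ± 0.39. JUNB moved to -1.28 ± 0.82, CEBPB from -0.36 to -0.82 and ATF3 to -1.72 ± 1.21. With no such term, JUNB was at -1.85 without treatment replicate 3 and at -0.56 without control replicate 7, and EGR1 at -0.76 without the latter. FOS, FOSB and JUN lay between -0.05 and 0.10. These values pool opposite directions in the 2 kinds and are a description.

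The difference between the 2 kinds in the treatment effect was also fitted, as an alternative added after the data were seen. It was positive for all 10 genes, where 47% of 11468 features were positive, and edgeR called 0 features (0%), of which 609 (5.31%) had an unadjusted p under 0.05. NR4A1 had the widest difference, 7.39 ± 1.52 (log2), followed by JUNB at 3.96 ± 0.97 and EGR1 at 3.55 ± 1.04. The smallest were FOS at 0.82 ± 1.16 and JUN at 1.15 ± 1.14, each about the size of its error. Lower fitted levels in granulosa-rich and higher ones in leukocyte-rich libraries were found for 10 of 10 genes and for 26.8% of 8511 features tested in both. The granulosa-rich values entered the choice of genes, so nothing is read from this count.

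The kinds of library were also set side by side within each label. Among control libraries 2 of the 10 genes were higher in the leukocyte-rich kind, where 4796 of 9738 features were lower. NR4A1, EGR1, JUND and JUNB had log2 differences of -5.72 ± 1.03, -2.11 ± 0.60, -1.95 ± 0.35 and -1.22 ± 0.58. Among treatment libraries all 10 were higher in the leukocyte-rich kind, where 5105 of 9802 features were lower. JUNB was higher by 2.68 ± 0.70, CEBPB by 2.66 ± 0.60 and NR4A1 by 1.63 ± 1.13. JUND differed by 0.07 ± 0.38. Over both labels 6 of 10 were higher, against 48.9% of 9653 features. With scaling by library size the median of all features moved from -0.03 to 0.17 and FOSB turned from -0.27 to 0.00. The kind was set by INHA, so these are descriptions.

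Within a kind, the 10 genes were compared library by library after the mean of each label group was subtracted, with an exact two-sided permutation of libraries within label groups and adjustment over the 45 pairs of each kind. In the 9 granulosa-rich libraries the median Pearson r was 0.36 and 37 of 45 pairs (82.2%) were positive, against 0.01 and 50.6% over all pairs of features. An r above the median of the 10 genes was found for 24.8% of all pairs of features. Of the 45 pairs 2 passed, where 0.000347 is the smallest p the permutations can give. JUN and IER2 had r = 0.95 (exact permutation p = 0.00104, adjusted p = 0.0234) and Spearman's rho of 0.95 (exact p = 0.00139, adjusted p = 0.0625), and r was 0.94 without the 2 libraries farthest from JUN's median. JUNB and EGR1 had r = 0.87 (exact permutation p = 0.000694, adjusted p = 0.0234) and rho of 0.95 (exact p = 0.00278, adjusted p = 0.0625), and r was 0.86 without the 2 farthest libraries. NR4A1 and CEBPB, both with separate treatment and control levels, had r = 0.73 (exact permutation p = 0.0281, adjusted p = 0.181), and 0.30 without the 2 farthest. The lowest value was that of FOSB and NR4A1, r = -0.67 (exact permutation p = 0.0941, adjusted p = 0.282).

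EGR1 and JUNB were positive with all 9 other genes and NR4A1 with 5, the fewest. The median r was 0.60 without treatment replicate 5 and 0.55 without control replicate 3. In the 7 leukocyte-rich libraries the median r was 0.75, with 43 of 45 pairs (95.6%) positive against 49.9% of all pairs of features. Without treatment replicate 1 the median r was 0.49, and 33 of 45 pairs were positive. No pair passed, and the smallest p that the 144 permutations can give is 0.00694. JUN and IER2 had r = 0.97 there (exact permutation p = 0.00694, adjusted p = 0.156), FOS and FOSB r = 0.97 (exact permutation p = 0.0208, adjusted p = 0.179). The pairs share the same libraries, depth and scaling.

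**Figure D4:**
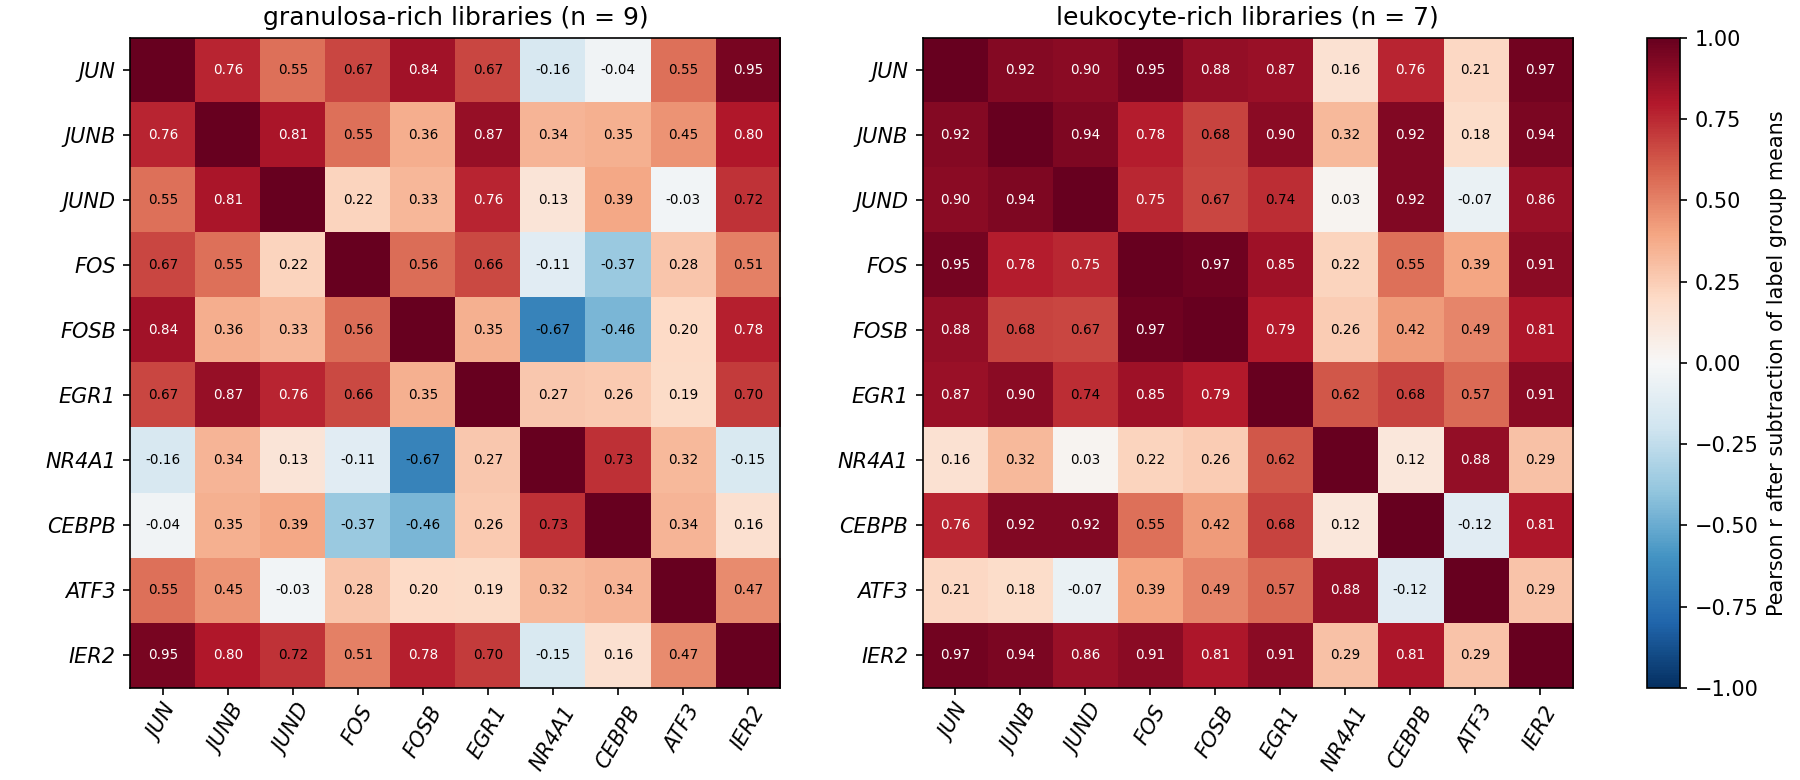
Pearson r between the 10 genes after subtraction of the label group means, in the granulosa-rich (n = 9) and leukocyte-rich (n = 7) libraries. Most cells are positive, 37 of 45 pairs and 43 of 45 pairs, and the pair of JUN and IER2 is at 0.95 and 0.97.

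Other genes of the response were described from lists. Of 48 other immediate early genes 39 were counted. In the granulosa-rich libraries 25 of the 35 tested were lower in treatment (median log2 fold change -0.45), against 47.1% of all features. In the leukocyte-rich libraries 32 of 34 were higher, against 51.1% of all features. The median there was 0.48, against 0.01 over all features. Of the 33 tested in both, 22 were lower in the first and higher in the second, against 26.8% of 8511 features. The 2 most abundant were BTG1, an antiproliferative factor, at -1.79 ± 0.69 and 0.25 ± 0.36, and MCL1, an inhibitor of apoptosis, at -0.43 ± 0.49 and 0.33 ± 0.26. edgeR called none in either kind, where 6 and 4 had an unadjusted p under 0.05.

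MAP kinase feedback inhibitors, which shut off the kinases that induce these genes, had 6 of 9 lower in the granulosa-rich libraries (median -0.53) and 9 of 10 higher in the leukocyte-rich ones (median 0.61). Of all features 47.1% were lower in the first kind and 51.1% higher in the second. DUSP1, the phosphatase of p38 and JNK, had log2 fold changes of -0.58 ± 0.75 and 1.01 ± 0.75, and SPRED1, an inhibitor of RAS signalling, of 0.03 ± 0.42 and 0.21 ± 0.26. Upstream kinases and activators split 9 lower and 10 higher in the granulosa-rich libraries (median 0.06), and PRKACA, a catalytic subunit of protein kinase A, had a log2 fold change of 0.23 ± 0.22 there and -0.03 ± 0.13 in the leukocyte-rich ones.

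Other basic leucine zipper partners split 8 lower and 8 higher in the granulosa-rich libraries, with a median of -0.07. CEBPD, the relative that can pair with CEBPB, was at 199 to 3507 CPM in control and 124 to 1073 CPM in treatment, and had a log2 fold change of -1.98 ± 0.79 there and 0.10 ± 0.17 in the leukocyte-rich libraries. ATF4, the factor of the integrated stress response, had 0.34 ± 0.47 and 0.16 ± 0.17.

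**Figure D5:**
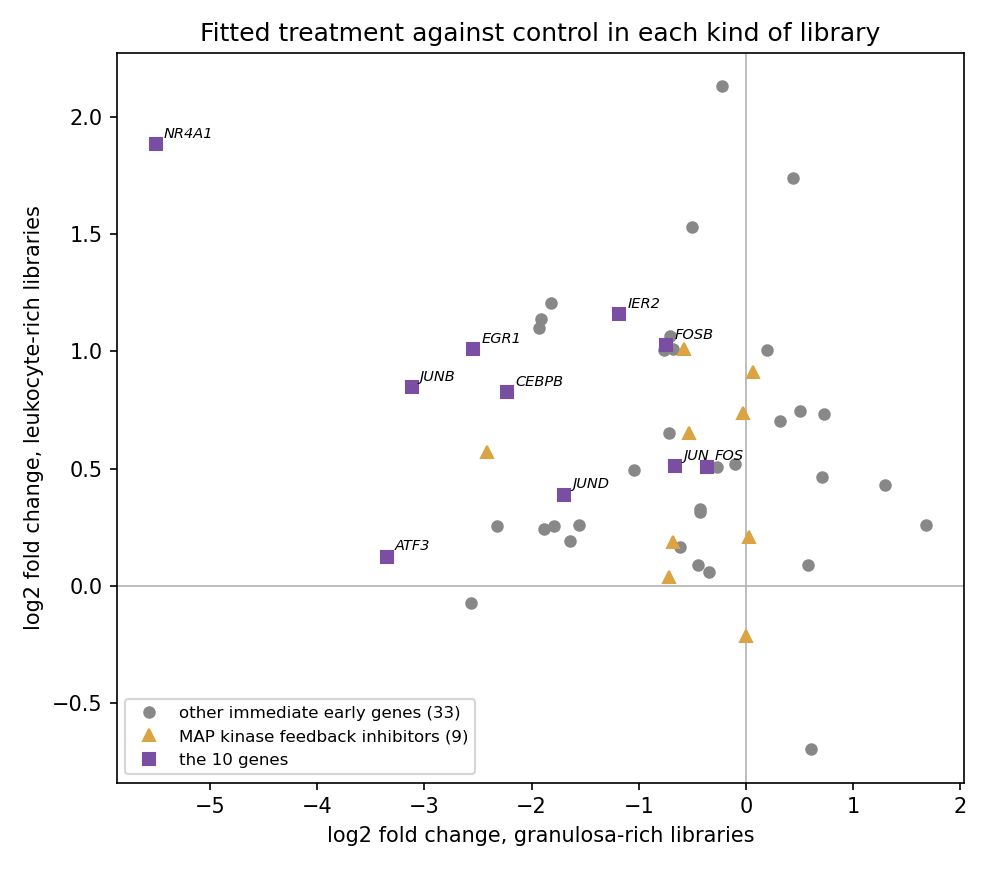
Fitted log2 fold change of treatment over control in the granulosa-rich libraries (x axis) and the leukocyte-rich libraries (y axis) for the 10 genes (squares), the 33 other immediate early genes (circles) and the 9 MAP kinase feedback inhibitors (triangles) tested in both; lines mark 0. The upper left holds all 10 genes, 22 of 33 and 6 of 9, with NR4A1 farthest out, where 26.8% of all features tested in both would lie.

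The genes whose pattern was most like the mean of the 10 across the 9 granulosa-rich libraries, after subtraction of the label group means and among 6356 genes, were ARF3 (r = 0.95), DAZL (0.94), BAMBI (0.94), SERTAD1 (0.93) and PDE7B (0.93). The most opposite were FOXO3 (-0.94), TSPYL4 (-0.94), DUSP19 (-0.91), HEXIM1 (-0.91) and CHD1L (-0.89). In the 7 leukocyte-rich libraries the first 5 had r between -0.33 and 0.36 and the other 5 between -0.34 and 0.22. These r values are descriptions, picked as extremes.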

How the data were processed

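The authors deposited raw counts, as whole numbers for each RefSeq accession, 1 file per library, not normalized; an accession with no line was taken as 0. The tools named per the submitters' processing notes are Bowtie2, SAMtools and cutadapt. Not given in the sources used here are their versions, the genome build and the handling of multi-mapped reads, so no coordinates are printed. Per the labels' protocols, poly(A) RNA was isolated from 200 ng of total RNA (integrity number of at least 7) and amplified for 12 cycles; the kit keeps no strand information, so overlapping and antisense genes cannot be told apart.

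Of 27306 accessions, 133 genomic records (0.712 to 1.919% of counts) were left out. By the RefSeq gene table of ARS-UCD2.0, 18973 of 27173 transcripts matched 12429 genes, whose counts were summed; 8200 unmatched transcripts stayed as features.

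The quasi-likelihood test of edgeR 4.0.16 (R 4.3.3; robust fit, TMM factors, filterByExpr, adjusted p under 0.05) compared treatment with control on all features, without a covariate. All 10 genes passed the filter in each comparison. The SE is the size of the log2 fold change over the root of F. Log2 CPM used a prior count of 1. The code was tested on simulated data. Alternatives were DESeq2 1.42.0 and limma-voom (limma 3.58.1), other scaling, filters and accessions, a block, and leaving out libraries. The genes and lists were chosen with earlier results of these data known. Named beyond the 10 genes were the 2 most abundant tested genes of each list (1 of them is not reported here), and the 5 genes with the highest and the 5 with the lowest r with the mean of the 10. Replicate numbers were checked as pairs: r of the deviations of same-numbered libraries ranged from -0.605 to 0.605.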

Additional observations from a re-analysis of the deposited data

Results flagged for a closer look

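In 30 groups of 4 or 5 libraries (10 genes, 3 groups each), 1 value stood apart by Dixon's criterion, at which chance flags about 5% of groups. EGR1 in granulosa-rich treatment replicate 6 was at 63.9 CPM, and the other 3 granulosa-rich treatment libraries were at 492 to 738 CPM. The same library was lowest for 7 of the 10 genes.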

How the results depend on the processing

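Calls differed between tools: DESeq2 called 14 features in the granulosa-rich libraries, 1 in the leukocyte-rich and 3 in all 16, where edgeR called 0 in each; the cause was not tested. Some small fold changes over all libraries changed direction: FOS to -0.57 with limma-voom, FOSB to -0.51 with limma-voom and -0.0079 with at least 10 counts in every library, IER2 to -0.10 with kind as a covariate and -0.26 with limma-voom, and JUN to 0.087 with library size alone. In the leukocyte-rich libraries ATF3 was at -0.11 with its most abundant accession alone and CEBPB at -0.14 without treatment replicates 1 and 3. In the granulosa-rich libraries JUN was at 0.34 without control replicates 4 and 7. Higher in the leukocyte-rich kind were 2 genes among control and 10 among treatment libraries, against 6 over both. Of all features 4796 of 9738 and 5105 of 9802 were lower in that kind among control and treatment libraries. The median r of the granulosa-rich libraries was 0.60 without subtraction of group means, 0.5 with Spearman's rho and 0.26 with library size alone.

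With 1 library left out, the median r ranged from 0.30 to 0.60 in the granulosa-rich and from 0.49 to 0.87 in the leukocyte-rich libraries. Fold changes that changed direction ranged, in the granulosa-rich libraries, from -1.11 to 0.017 (FOS) and -2.69 to 0.031 (FOSB); in the leukocyte-rich, from -0.82 to 0.98 (ATF3), -0.30 to 1.20 (CEBPB), -0.16 to 0.96 (JUN) and -0.12 to 1.25 (JUNB); and over all, from -0.17 to 0.31 (FOS), -0.43 to 0.52 (FOSB), -0.41 to 0.41 (IER2) and -0.46 to 0.21 (JUN). In these runs edgeR called 0 features.

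Same-numbered libraries were not alike (r of the deviations within kind -0.203 to 0.146). Such r values cannot exclude a pairing, and no label gives one. With the number as a block over all libraries, 10 of 10 genes were lower (FOS -0.48, FOSB -1.14, IER2 -0.59) and edgeR called 0 features. It also called 0 in the granulosa-rich libraries, where JUN was at -1.53 ± 0.43, FOSB at -2.20, IER2 at -2.28 and JUND at -2.45. There control and treatment share only numbers 4 and 7, so the block fit rests on libraries with these numbers. Without a block and without control replicates 4 and 7, JUN was at 0.34 and IER2 at -0.11. In the leukocyte-rich libraries control and treatment share 1 number, and no block could be fitted.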
